A study of Mus musculus with 2 samples.

Results

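Genes of bile acid synthesis and its regulation were followed in mouse hepatocytes before and after partial hepatectomy (PHx). They were chosen by name from the gene list of the files, as 10 of the 27998 genes listed, and comprise Cyp7a1 and Cyp8b1 of the classic pathway, Cyp27a1 and Cyp7b1 of the alternative pathway, Akr1d1 and Hsd3b7 of the shared ring steps, Baat and Slc27a5 of conjugation, and the nuclear receptors Nr0b2 and Nr1h4. Hepatocytes were freed with collagenase from livers of male C57BL/6 mice on normal diet, which the labels give as 10 to 12 weeks old at surgery. A droplet library of undamaged liver (0 h) was set against a library made 48 h after PHx (PHx48h), in which most of the liver is removed and the rest regrows. Each library came from part of the cells of 1 preparation, the labels name no transgene or drug, and both groups shared strain and diet. With 1 library per group the difference between mice is unknown, surgery and library cannot be told apart, and all intervals are 95% intervals for counting error only.

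Hepatocytes make bile acids from cholesterol. In the classic pathway Cyp7a1, the rate-limiting enzyme, starts on the sterol ring and Cyp8b1 directs the product toward cholic acid, whereas in the alternative pathway Cyp27a1 starts on the side chain and Cyp7b1 hydroxylates the ring. Bile acids returning to the liver activate the receptor FXR (Nr1h4), which induces the corepressor SHP (Nr0b2), and this loop lowers transcription of the synthesis enzymes.

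Transcripts were counted as unique molecular identifiers (UMIs), with 1 UMI per captured molecule. The undamaged library held 59202 barcodes with a median of 1436 UMIs and the PHx48h library 1586 barcodes with a median of 6838.5 UMIs, and 148 barcode sequences occurred in both. Levels were compared within 2 ranges of the mitochondrial share of UMIs, and they are given as CPM, the UMIs of the summed barcodes scaled to a total of 1000000 non-mitochondrial UMIs. Above 30% mitochondrial UMIs lay 3870 undamaged and 765 PHx48h barcodes, with median depths of 1213.5 and 4411 non-mitochondrial UMIs. Under 2% lay 52587 and 522 barcodes, with median depths of 1413 and 5271.5. After its filters the paper kept far fewer undamaged cells than this, so that most of these undamaged barcodes were not among the cells it analysed. Whether each of them holds a hepatocyte was not tested, and the levels and ratios under 2% carry that limit. All 10 hepatocyte markers were detected in each of these 4 pools, at a summed level between 63198 and 100313 CPM, and the macrophage and endothelial lists each stayed between 26.1 and 77.2 CPM. Of the stromal list, the summed level was 174 CPM in the PHx48h barcodes under 2% and between 28.6 and 33.1 in the other pools. The cholangiocyte list lay between 20.7 and 57.4 CPM with Krt19 at 0 in 3 of the 4 pools, the erythroid list between 27.6 and 246, and the B list between 1.04 and 42.4. In both PHx48h pools the B list level came from Ly6d alone, with Cd79a, Cd79b and Ms4a1 at 0. The T or NK list had 0 UMIs in both PHx48h pools. Malat1, a nuclear transcript, was at 4675 and 2816 CPM in undamaged and PHx48h barcodes above 30%, and at 2220 and 2172 under 2%. The part of these differences in the results was not tested.

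All 10 genes had a position in the GENCODE M21 annotation of GRCm38, the build called mm10 in the submitters' processing notes. Cyp7a1 (chr4:6265612-6275633, minus strand) and Cyp7b1 (chr3:18071950-18243338, minus strand) have up to 6 exons in a transcript, whereas Cyp8b1 (chr9:121914356-121916305, minus strand) is a single-exon gene. Nr0b2 (chr4:133553376-133556536, plus strand) has 2 exons and Nr1h4 (chr10:89454234-89533585, minus strand) up to 10. Hsd3b7 (chr7:127800604-127803802, plus strand) overlaps Gm49388 on the same strand, so that its counts are uncertain. RefSeq (GRCm38.p6) gave promoters for 6 of the 10 genes. Those of Cyp8b1, the enzyme that differed most between the libraries, and Nr0b2, the corepressor of the feedback loop, are shown as the 250 bases before the start, 5′ to 3′ on the strand of the gene. Capitals mark a site of the type bound by HNF4, a receptor that drives liver genes.

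Cyp8b1 chr9:121916306-121916555, minus strand: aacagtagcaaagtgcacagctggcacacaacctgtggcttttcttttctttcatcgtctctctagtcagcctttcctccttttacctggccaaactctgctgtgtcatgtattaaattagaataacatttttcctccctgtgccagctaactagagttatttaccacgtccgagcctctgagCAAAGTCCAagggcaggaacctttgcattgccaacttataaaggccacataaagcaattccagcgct
Nr0b2 chr4:133553126-133553375, plus strand: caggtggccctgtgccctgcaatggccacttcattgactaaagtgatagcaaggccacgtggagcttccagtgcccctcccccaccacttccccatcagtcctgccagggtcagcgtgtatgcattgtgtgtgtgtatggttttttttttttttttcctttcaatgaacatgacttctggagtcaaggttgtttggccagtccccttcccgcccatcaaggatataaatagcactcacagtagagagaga

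The letters CAAAGTCCA, searched on both strands, begin 67 bases before the Cyp8b1 start, and 0.384% of the 32851 promoters of this length hold them. They were chosen after this promoter was read, so that the match is a description and no test. The nuclear receptor core motif AGGTCA occurred in 14.0% of all promoters, in neither promoter shown, at 2 places in that of Akr1d1 and at 1 in that of Nr1h4. The extended motif CAAGGTCA, which contains the shorter motif, was in 1.33% of all promoters and in none of the 6, and the inverted repeat of AGGTCA with 1 base between was in 2 promoters of the table and in none of the 6. These matches describe letters and not binding.

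In barcodes above 30% mitochondrial UMIs, 4 of the 9 members that reached 10 CPM in either library were at least 2-fold lower at 48 h (Cyp8b1, Cyp27a1, Cyp7b1 and Slc27a5), and 1 was at least 2-fold higher (Cyp7a1). Among all 7418 genes tested, 5.62% were at least 2-fold lower and 32.6% at least 2-fold higher. Under 2%, 5 of 9 members were at least 2-fold lower and 0 higher, against 22.3% and 26.7% of 6392 genes. The median log2 ratio of the 10 members was 0.13 above 30% and -1.15 under 2%, and that of all genes was 0.59 and 0.11. The member median includes Hsd3b7, which did not reach 10 CPM, whereas the genes tested all did. Among the 9 members that did, the middle value was 0.45 above 30% (Nr0b2) and -1.04 under 2% (Baat). The sign of the 10-member median above 30% rested on the setting, since it was -0.43 with TMM scaling and -0.11 without the 20 most abundant genes. Among the 9 members that reached 10 CPM, the middle value was -0.11 with TMM scaling but 0.21 without those abundant genes. The level of a ratio therefore has to be read against the shift of all genes, which depended on the scaling. Above 30%, 14.7% of the genes past 2-fold were lower ones, and with TMM scaling this share was 52.6%, the all-gene median -0.031, and every log2 ratio lower by 0.56. In bulk pools such as these, fewer expressing barcodes and fewer transcripts per barcode cannot be told apart from the ratio alone.

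**Figure D1:**
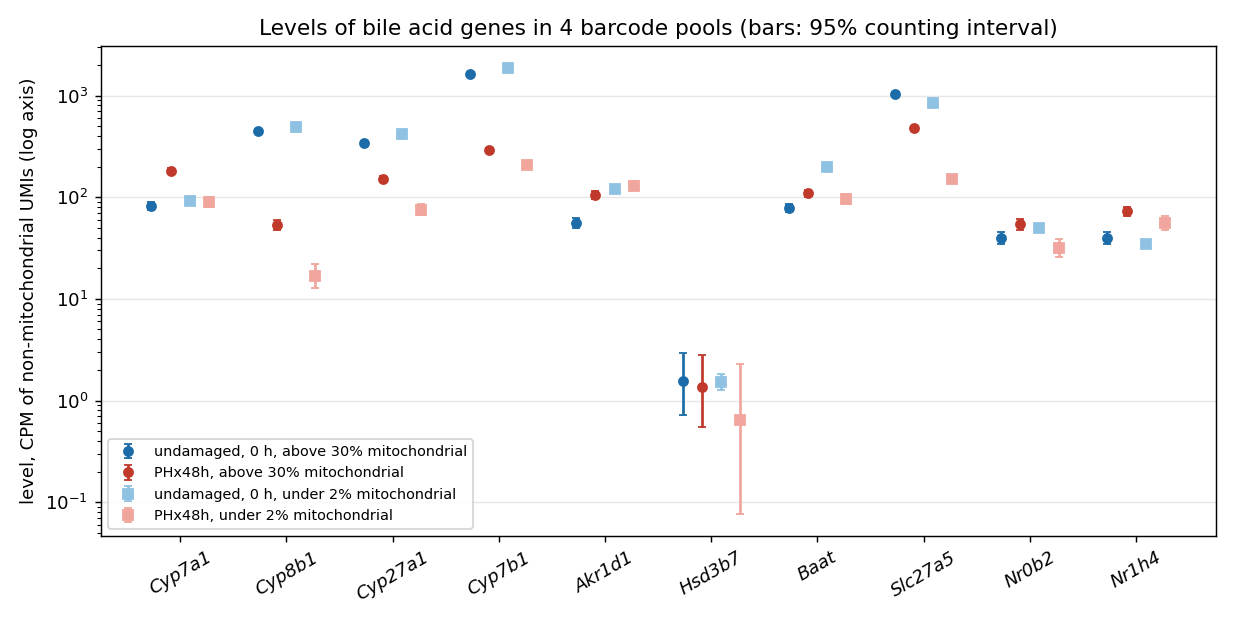
Level of each of the 10 genes (CPM of non-mitochondrial UMIs, log axis) in undamaged (blue) and PHx48h (red) barcodes above 30% (circles, dark) and under 2% (squares, light) mitochondrial UMIs; bars are 95% Poisson intervals. Cyp8b1, Cyp27a1, Cyp7b1 and Slc27a5 were lower at 48 h in both ranges, whereas Cyp7a1 was higher above 30% and level under 2%, and Hsd3b7 lay under 2 CPM in every pool.

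The classic pathway was split. Cyp7a1 was at 82.9 CPM in undamaged and 182 in PHx48h barcodes above 30%, a log2 ratio of 1.14 (0.98 to 1.30) from 479 and 930 UMIs. With TMM scaling this ratio was 0.58, against an all-gene median of -0.031. Under 2%, the levels were 91.9 and 89.9 CPM and the log2 ratio was -0.032 (-0.21 to 0.14). Cyp8b1 went the other way, from 451 CPM in undamaged to 53.3 in PHx48h barcodes above 30%, which is 8.46-fold lower (log2 ratio -3.08, interval -3.27 to -2.90). Under 2%, it was at 489 and 16.9 CPM, which is 28.9-fold lower, on 53 UMIs at 48 h.

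The alternative pathway was lower throughout. Cyp7b1 was at 1646 CPM in undamaged and 293 in PHx48h barcodes above 30%, or 5.62-fold lower (log2 ratio -2.49, -2.57 to -2.41). Under 2%, it was at 1852 and 209 CPM, or 8.88-fold lower. Cyp27a1, which also acts on other sterols in mitochondria, was at 344 and 151 CPM above 30% (log2 ratio -1.19, -1.31 to -1.07) and at 422 and 75.6 under 2% (-2.48, -2.67 to -2.30). With a mitochondrial limit of 50% in place of 30%, its log2 ratio was -0.68 and that of Slc27a5 -0.92, and the count of members at least 2-fold lower was 2, Cyp8b1 and Cyp7b1.

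Akr1d1, the reductase of the sterol double bond, was at 55.9 and 106 CPM above 30%, a log2 ratio of 0.92 (0.72 to 1.12), and at 121 and 130 under 2% (0.11, -0.040 to 0.25). With TMM scaling the ratios were 0.36 and -0.043. Hsd3b7, a dehydrogenase of the sterol ring, was counted 9 and 7 times above 30% and 120 and 2 times under 2%, and no difference was detectable at this depth (log2 ratio -0.18, interval -1.84 to 1.41, above 30%).

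The conjugation genes differed from each other. Slc27a5, the ligase that activates bile acids with coenzyme A, was at 1028 and 485 CPM above 30% (log2 ratio -1.08, -1.15 to -1.02) and at 847 and 151 under 2% (-2.49, -2.62 to -2.36). Baat, which joins activated bile acids to taurine or glycine, was at 78.9 and 110 CPM above 30% (log2 ratio 0.48, 0.29 to 0.66), a direction that TMM scaling turned to -0.085. Under 2%, Baat was at 199 and 96.9 CPM (log2 ratio -1.04, -1.20 to -0.87), 2.05-fold lower.

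The nuclear receptors, FXR and its target SHP, were counted 99 to 3913 times per pool. Nr1h4 was at 39.8 and 73.3 CPM above 30% (log2 ratio 0.88, 0.64 to 1.12, and 0.32 with TMM scaling) and at 35.1 and 55.8 under 2% (0.67, 0.44 to 0.89). Nr0b2 was at 39.6 and 54.1 CPM above 30% (0.45, 0.19 to 0.71), which TMM scaling turned to -0.11, and at 49.7 and 31.6 under 2% (-0.65, -0.96 to -0.37).

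**Figure D2:**
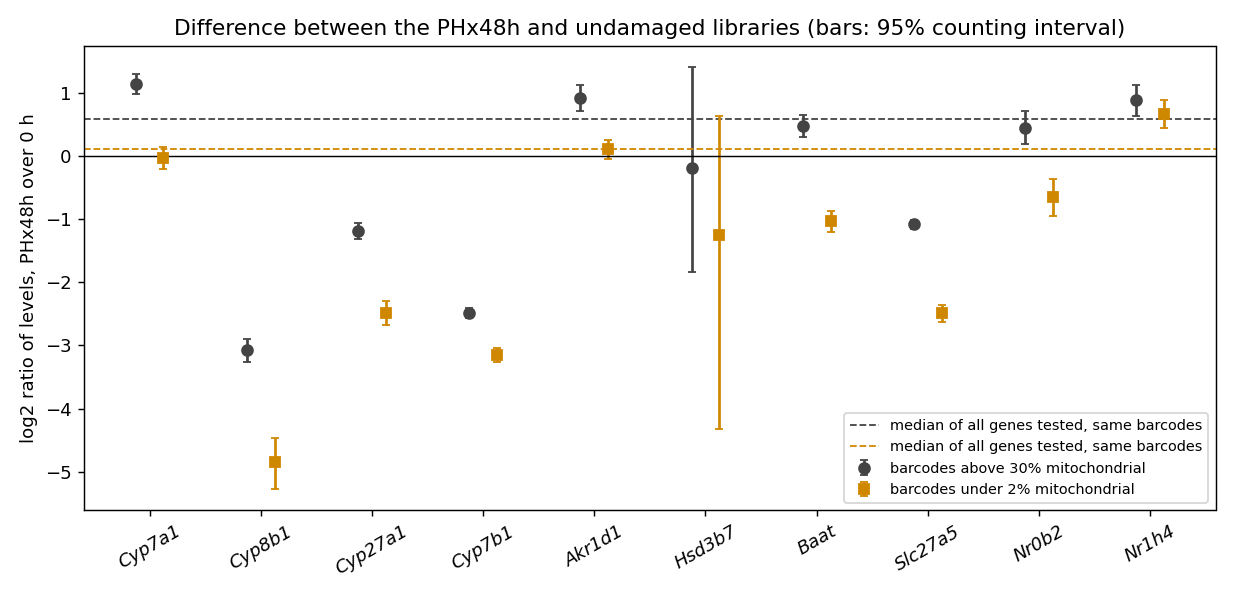
Log2 ratio of levels, PHx48h over undamaged, for each gene in barcodes above 30% (circles) and under 2% (squares) mitochondrial UMIs; bars are 95% counting intervals and dashed lines the median of all genes tested in the same barcodes (0.59 and 0.11). Cyp8b1 and Cyp7b1 had the lowest ratios of the 10 genes in both ranges, and Baat and Nr0b2 had opposite signs in the 2 ranges, whereas with TMM scaling both were negative in both.

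The ratios depended on the choice of barcodes. On the main scaling the log2 ratio was larger above 30% than under 2% for all 10 genes, by 1.77 for Cyp8b1 (1.34 to 2.20), 1.51 for Baat, 1.41 for Slc27a5, 1.30 for Cyp27a1, 1.17 for Cyp7a1, 1.10 for Nr0b2, 0.81 for Akr1d1 and 0.66 for Cyp7b1, where the medians of all genes were 0.59 and 0.11. The intervals of the difference included 0 for Nr1h4 (0.21, -0.11 to 0.53) and Hsd3b7. With TMM scaling, which lowers the ratios more above 30% than under 2%, the order turned for Nr1h4 (0.32 above 30% and 0.52 under 2%) and the ratios of Cyp7b1 lay closer together (-3.05 and -3.30). Within the undamaged library, barcodes above 30% had 2.52-fold less Baat and 2.16-fold less Akr1d1 than barcodes under 2%, whereas Slc27a5 was 1.21-fold higher. Within the PHx48h library, Slc27a5 was 3.22-fold, Cyp8b1 3.15-fold and Cyp7a1 2.03-fold higher in barcodes above 30%. In barcodes with 2% to 30% mitochondrial UMIs, of which marker-rich ones made up 11.1% and 21.7%, Cyp7a1 was at 94.6 and 172 CPM and Cyp8b1 at 453 and 49.0.

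The position of hepatocytes along the lobule was described by the perivenous share of 24 zonation markers, with barcodes of at least 5 zonation UMIs split by rank into 3 bins of near-equal number. Of 3870 undamaged barcodes above 30%, 3666 entered, of which 310 lay within 0.02 of a cut, and of the 765 PHx48h barcodes all entered and 95 lay that near. Bins are ranges of a score and not cell types, and they were cut separately in each library. From periportal to perivenous, the median perivenous share was 19.0%, 42.9% and 82.4% at 0 h and 10.0%, 24.3% and 62.2% at 48 h. A bin of the same name therefore covers other shares at 48 h than at 0 h. At 0 h, 2 of 9 members were at least 1.5-fold higher in the perivenous bin (Cyp7a1 and Cyp27a1), where 25.8% of 6324 genes were, and 0 were higher in the periportal bin, where 5.57% were. At 48 h, 4 of 9 were perivenous (Cyp7a1, Cyp8b1, Cyp27a1 and Akr1d1) and 1 periportal (Nr0b2), against 11.2% and 9.02% of 7641 genes. The perivenous count at 0 h thus lay near the background, and the median gene itself had a perivenous over periportal log2 ratio of 0.27 at 0 h and 0.062 at 48 h. From periportal to perivenous, the median depth was 1261, 1355 and 1162 non-mitochondrial UMIs at 0 h and 6484, 4572 and 3563 at 48 h, and its part in the gradients was not tested.

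Cyp7a1 had the steepest zonation of the 10 genes. In undamaged barcodes it was at 17.9 CPM in the periportal, 50.2 in the middle and 209 in the perivenous bin, an 11.6-fold difference. At 48 h it was at 37.9, 194 and 433 CPM, an 11.4-fold difference. It was higher than in the 0 h bin of the same name in each case (2.12-fold, 3.86-fold and 2.07-fold), which does not compare matched shares. Cyp27a1 was 1.77-fold higher in the perivenous bin at 0 h and 2.04-fold at 48 h. Cyp8b1 was at 395, 428 and 553 CPM at 0 h and at 39.7, 62.4 and 66.6 at 48 h, so that every bin at 48 h was lower than every bin at 0 h.

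Other members had shallower or opposite gradients. Nr0b2 was at 32.8, 41.3 and 45.5 CPM from periportal to perivenous at 0 h, with a log2 ratio of 0.47 whose interval included 0 (-0.027 to 0.97). At 48 h it was at 64.3, 56.1 and 32.5 CPM, with a log2 ratio of -0.99 (-1.53 to -0.47). Cyp7b1 was 1.12-fold higher in the perivenous bin at 0 h (log2 ratio 0.17) and lower at 48 h (-0.22, -0.41 to -0.040). Slc27a5 was level at both times, at 1024 and 1005 CPM in the outer bins at 0 h and at 481 and 494 at 48 h. Akr1d1 was at 49.8 and 68.3 CPM in the outer bins at 0 h and at 86.8 and 132 at 48 h. With a limit of 50% mitochondrial UMIs, the count of perivenous members at 48 h was 2 in place of 4. In undamaged barcodes under 2%, the 9 members that reached 10 CPM differed by at most 1.03-fold between the outer bins, and 0 of 5577 genes were at least 1.5-fold higher in the perivenous bin. In the periportal bin 3 were. From periportal to perivenous, Cyp7a1 was at 90.1, 93.0 and 92.7 CPM in these barcodes. What this near lack of zonation means for the 0 h levels and the ratios under 2% was not tested. At 48 h under 2%, the log2 ratio of perivenous over periportal was 0.22 for Cyp7a1 (-0.18 to 0.63) and 0.58 for Cyp7b1 (0.29 to 0.87).

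**Figure D3:**
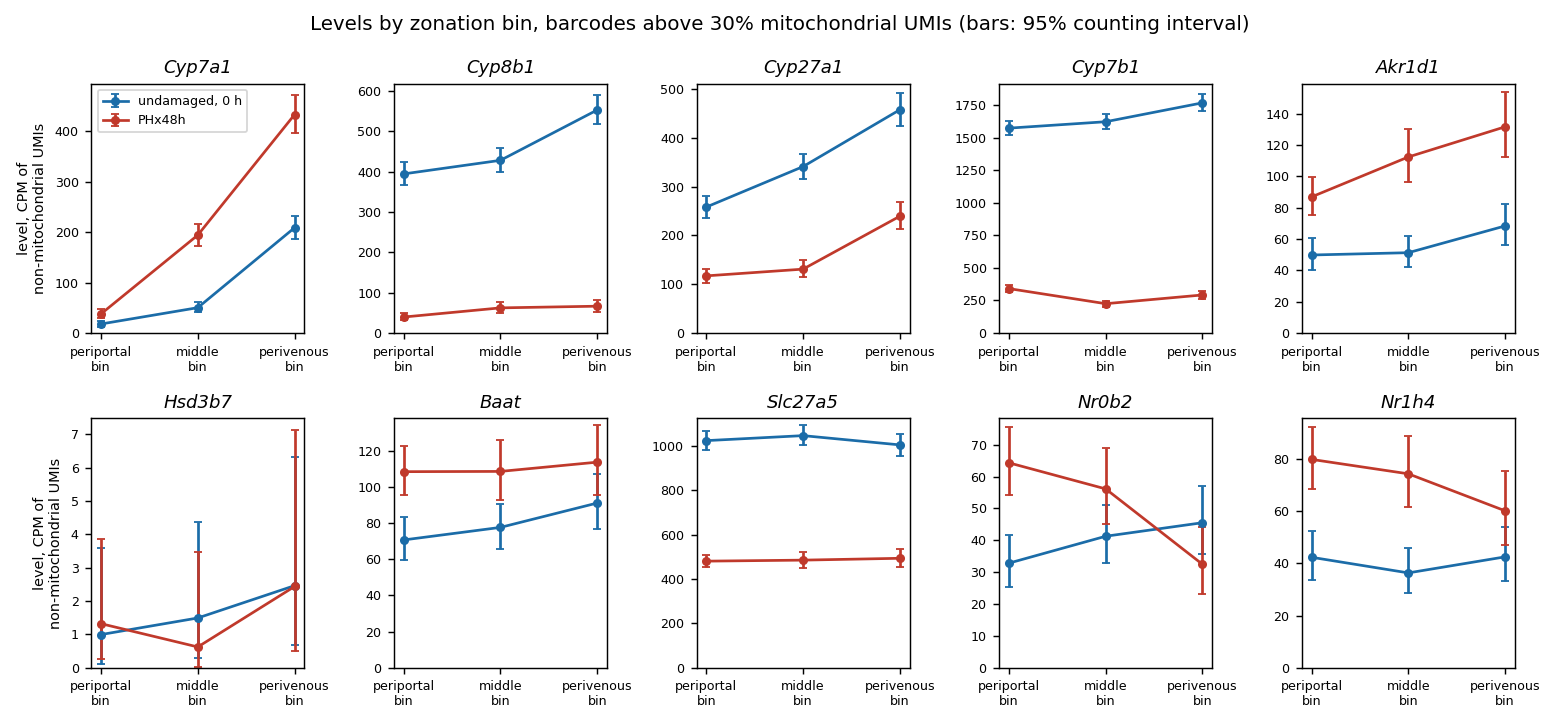
Levels of the 10 genes (CPM of non-mitochondrial UMIs, axis from 0 and different for each gene) in the periportal, middle and perivenous bins of barcodes above 30% mitochondrial UMIs, at 0 h (blue) and PHx48h (red); bars are 95% Poisson intervals. Bins were cut separately in each library. Cyp7a1 climbed from 17.9 to 209 CPM at 0 h and from 37.9 to 433 at 48 h, and Nr0b2 had its highest level in the perivenous bin at 0 h and in the periportal bin at 48 h.

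The genes nearest in pattern to Cyp7a1 and Cyp8b1 were sought among 8337 genes over 12 pools, by the distance between log2 levels centred over the pools. For Cyp7a1 they were Slc1a4 (distance 1.79), Lhpp (1.88) and Tbx3 (1.89), and for Cyp8b1 Ces3a (1.54), Hyou1 (1.64) and the transporter Slco1a1 (1.88). The pools share 2 libraries, so that these distances are a description only.

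The share of barcodes with a UMI was taken after thinning each barcode to 500 non-mitochondrial UMIs, leaving out 75 shallower undamaged barcodes. As a background, the share was also taken in barcodes rich in macrophage, endothelial, stromal, T or NK and B markers, 356 in the undamaged library with a median depth of 2699.5 and 69 at 48 h with 6176. Cyp7a1 was seen in 4.22% of undamaged and 10.7% of PHx48h barcodes above 30%, against 2.25% (0.98% to 4.38%) and 0 of 69 marker-rich barcodes, the latter allowing up to 5.21% by the exact binomial interval. Cyp8b1 was seen in 19.1% and 3.01%, against 12.6% and 0 of 69, and Cyp7b1 in 56.5% and 15.3%, against 42.1% and 4.35%. Cyp27a1 was seen in 14.6% and 8.89%, against 8.71% and 1.45%, and Slc27a5 in 40.3% and 24.2%, against 19.1% and 2.90%.

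In the undamaged library, the shares above 30% of Baat (3.96%), Akr1d1 (2.35%) and Nr0b2 (1.93%) were at or below those of the marker-rich barcodes (5.62%, 3.09% and 1.97%). All lay inside the marker-rich intervals (3.47% to 8.54%, 1.55% to 5.46% and 0.79% to 4.01%), so that these shares cannot be told from that background. By pooled level, Baat and Akr1d1 were at 78.9 and 55.9 CPM, against 121 and 76.3 in marker-rich barcodes. Nr0b2 was at 39.6 CPM, above the 26.7 (17.7 to 38.6) there. Marker-rich barcodes at 0 h held Cyp7b1 at 890 CPM, so that this background is not free of the genes. At 48 h their shares above 30% were 4.84%, 5.62% and 2.09%, where the marker-rich intervals, from 69 barcodes, reached 5.21%, 7.81% and 5.21%. By pooled level at 48 h the 3 genes lay above the marker-rich barcodes. They were at 110, 106 and 54.1 CPM, against 23.9 (11.9 to 42.7), 43.4 (26.5 to 67.0) and 8.68 (2.36 to 22.2). Like their shares at 0 h, that of Nr1h4 at 0 h (2.22% against 1.97%) was within the counting error of the marker-rich barcodes. The 0 h levels of these 4 genes above 30%, and the ratios built on them, carry that limit. For Nr1h4 the limit holds in both ranges: under 2% its 0 h share was 1.68%, also below the marker-rich 1.97%, and at 48 h its level in marker-rich barcodes was 95.5 CPM, above the 73.3 and 55.8 CPM of the 2 ranges, although its thinned share there was 1.45% (1 of 69) against 4.05% and 2.32%. The 0 h share of Nr0b2 under 2% was 2.40%, also inside its marker-rich interval, although its level of 49.7 CPM lay above the 26.7 CPM of the marker-rich barcodes. Unthinned, Cyp7a1 was seen in 10.5% and 43.8% of barcodes above 30%, with depths of 1213 and 4411 non-mitochondrial UMIs.

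**Figure D4:**
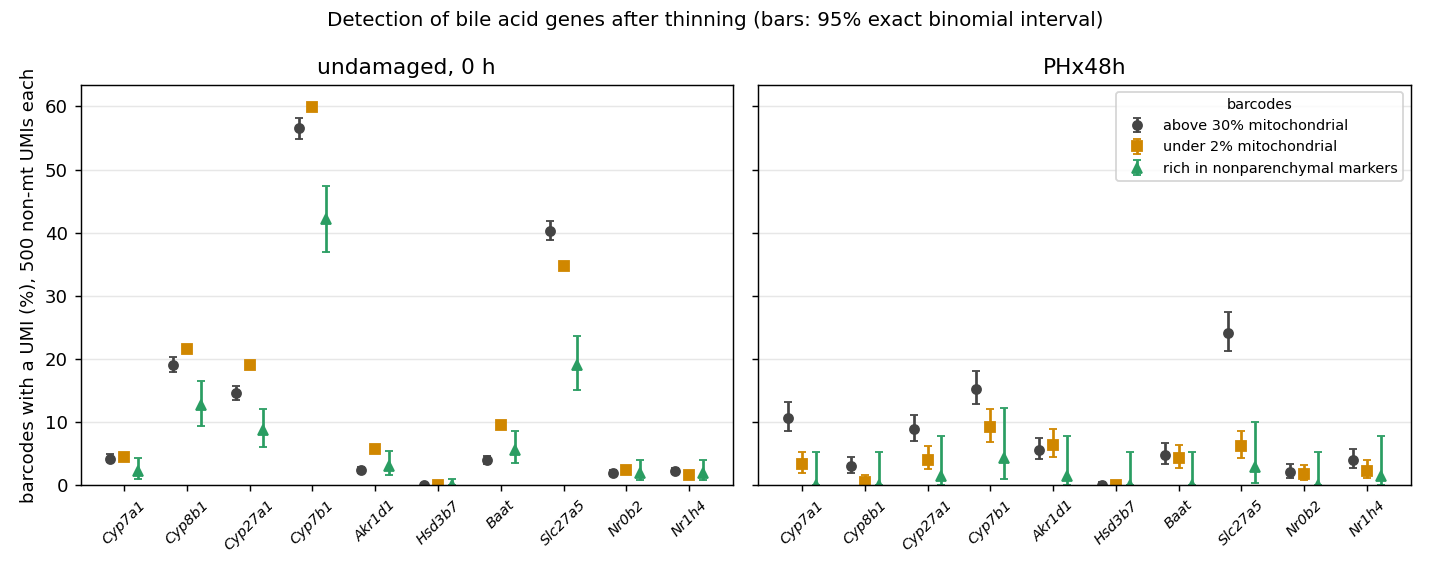
Share of barcodes (%) with a UMI of each gene after thinning to 500 non-mitochondrial UMIs, at 0 h (left) and PHx48h (right), in barcodes above 30% (circles), under 2% (squares) and rich in nonparenchymal markers (triangles); bars are 95% exact binomial intervals. Cyp7b1 was seen in 42.1% of marker-rich undamaged barcodes against 56.5% above 30%, and Cyp7a1 in 10.7% of PHx48h barcodes above 30%.

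A wider list of 43 genes of side chain enzymes, regulators and transporters gave 38 with at least 10 UMIs in either library above 30%. Of these, 4 were at least 2-fold lower with an interval leaving out 1, 6 were higher and 28 were neither. Of all genes tested, 5.62% were at least 2-fold lower and 32.6% higher, by fold alone among genes that reached 10 CPM. The filters of the 2 counts thus differ. All 13 side chain and other synthesis enzymes counted were neither on this scaling, whereas TMM scaling put Abcd3, Cyp2a12, Cyp2c70, Cyp46a1 and Slc27a2 at least 2-fold lower. Cyp46a1 rested on 12 and 4 UMIs, and its interval on the main scaling included 0 (-3.49 to 0.32). Under 2%, the log2 ratios of Slc27a2 (-2.65), Abcd3 (-1.98) and Cyp2c70 (-1.75) were past 2-fold on the main scaling too. Of 14 regulators, 5 were higher and 1 was lower, so that the share of higher ones lay near that of all genes. The higher ones were Prox1, a corepressor of Cyp7a1 (44.3 and 147 CPM, log2 ratio 1.73), Hnf4a, an activator of Cyp7a1 and Cyp8b1 (1.43), the fatty acid receptor Ppara (1.28), the oxysterol receptor Nr1h3 (1.15) and its partner Rxra (1.08). The lower one was the liver transcription factor Onecut1 (40.1 and 9.80 CPM, -2.04). Under 2%, the log2 ratios were -0.16 for Prox1, 0.56 for Hnf4a, 1.12 for Ppara, 0.20 for Nr1h3, 0.16 for Rxra and -1.16 for Onecut1. Past 2-fold under 2% only were the counted regulators Foxa2 (-1.99), Fgfr4 (-1.98, 17 UMIs at 48 h) and Klb (-1.20, 12 UMIs at 48 h), which were lower, and Nr1i2 (1.07), which was higher. Of 11 transporters, the uptake carriers Slco1a1 (-3.10), Slco1b2 (-2.07) and Slc10a1 (-1.70) were lower and the exporter subunit Slc51b was higher (8 and 55 UMIs, 2.96). Under 2%, these were at -4.21, -3.02, -1.69 and 4.27. The transporters Abcb11 (-2.40), Atp8b1 (-2.26), Abcc3 (-1.56) and Abcc2 (-1.09) were past 2-fold lower under 2% only. With TMM scaling above 30%, 12 of the 38 were lower and 2 higher (Prox1 and Slc51b), and none of the 10 genes named for passing 2-fold above 30% changed direction.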

How the data were processed

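Hepatocyte transcripts were measured in 1 library per group by the 10x Genomics Single Cell 3′ v2 assay. The authors processed reads with Cell Ranger (mm10 per the submitters' processing notes, version not given in the sources used here), and the deposited UMI counts per gene and barcode were whole numbers without normalization. The authors' filters on mitochondrial content and doublets have no stated thresholds, and no doublet caller was run, so that doublets may remain.

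Counts were summed over barcodes above 30% or under 2% mitochondrial UMIs (13 mitochondrial genes) and divided by non-mitochondrial UMIs. Levels carry exact Poisson intervals, ratios exact conditional binomial ones (Clopper-Pearson), and differences between ranges Wald intervals. No p-value was computed, because each group was 1 library. Fold counts were taken over genes that reached 10 CPM in 1 or both libraries. Barcodes were called rich in nonparenchymal markers at 1% of non-mitochondrial UMIs, and thinning used seed 1. Intervals and ratios were tested on simulated Poisson counts only, which hold no variation between barcodes, libraries or mice.

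All 10 members were named, and of the wider list the at most 10 genes past 2-fold with the largest ratios. The genes and lists were chosen with earlier results of these data known, and the HNF4 type motif was added after the promoter was read. Igkc and Trac had no entry in the files. Alternatives covered mitochondrial limits, scaling (TMM in edgeR 4.0.16), barcode weights, filters and zonation bins. Software was Python 3.11.15, numpy 2.4.6, scipy 1.17.1, pandas 2.3.3 and R 4.3.3.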

Additional observations from a re-analysis of the deposited data

Results flagged for a closer look

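Differences of 3 kinds stood apart because the values of the compared sets went in opposite directions, with 1 library per group, so that none of the differences was tested over samples. The log2 ratio of Baat was 1.51 larger in barcodes above 30% mitochondrial UMIs than in barcodes under 2%, and was positive in the first and negative in the second. Nr0b2 differed between the same ranges by 1.10, again with opposite signs, and with TMM scaling both genes were negative in both ranges. The perivenous over periportal log2 ratio of Cyp7b1 was 0.39 smaller at 48 h than at 0 h (48 h minus 0 h, -0.39), from a positive to a negative value. The median of all genes also fell, from 0.27 to 0.062, and Cyp7b1 lay below it at both times.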

How the results depend on the processing

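No paired analysis was possible because each group held 1 library. The count of members at least 2-fold lower above 30% was 4, and 2 with mitochondrial limits of 50% and 1%. The count at least 2-fold higher was 1, and 0 without the 20 most abundant genes, with TMM scaling, with all UMIs in the total and in barcodes with 2% to 30%. The member median above 30% was 0.13, and -0.11 without the 20 most abundant genes, -0.43 with TMM, -0.13 with all UMIs, -0.38 with means of single barcodes and -0.018 without the deepest 1%. In barcodes with 2% to 30% it was -1.24, with Baat at -0.75 and Nr0b2 at -0.32, and with TMM scaling these genes were at -0.085 and -0.11. These medians include Hsd3b7, which did not reach 10 CPM. Among the 9 other members the middle value above 30% was 0.45, and 0.21 without the 20 most abundant genes and -0.11 with TMM. It was 0.19 with all UMIs, 0.19 with means of single barcodes and 0.37 without the deepest 1%. In barcodes with 2% to 30% it was -0.75. Genes of the whole table at least 2-fold lower above 30% numbered 417, and 688 without the 20 most abundant genes, 1112 with TMM, 254 at a minimum of 50 CPM and 854 with 1 UMI in each library. Those at least 2-fold higher numbered 2417, and 1003 with TMM, 1207 with all UMIs, 959 and 3988 under the same filters. Under 2%, the lower genes numbered 1428, and 652 and 2174 under the filters, and the higher ones 1706, and 879 and 3832. The perivenous members at 48 h were 4, and 2 at a limit of 50%. The cause of these shifts was not tested. Signs also turned for ratios whose intervals included 0: Hsd3b7 above 30% (0.62 at limits of 50% and 1%), Akr1d1 under 2% (-0.11 without the 20 most abundant genes, -0.043 with TMM), Cyp7a1 under 2% (0.043 with means of single barcodes, 0.87 in barcodes with 2% to 30%), and the gradients of Nr1h4 at 0 h (-0.49 at 50%), Baat at 48 h (-0.084 with 4 bins in place of 3) and Slc27a5 at both times, all 3 close to 0 before. The perivenous count at 0 h was 2, and 3 at 50%. Leaving out the thinning moved 38 of 40 shares of barcodes. A cut at 1% proliferation UMIs, and the cut at 0.5% with a limit of 50%, gave no value. Depth limited Hsd3b7 (9 and 7 UMIs above 30%) and Cyp8b1 under 2% at 48 h (53 UMIs).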

Other observations

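Bile acid genes were also compared by the share of UMIs from 25 proliferation genes in the PHx48h barcodes above 30%. The planned cut of 0.5% held 2 barcodes and gave a member median log2 ratio of -0.64 that rests on them, where the median of all genes was 1.08. The planned cut of 0.3% held 39 barcodes and gave a member median of -0.037. A split chosen after seeing the data took the 10% of barcodes with the highest share, 77 barcodes against 688, with median depths of 7099 and 4160.5 non-mitochondrial UMIs. In those 77 barcodes Cyp7a1 was at 102 CPM against 197 in the rest (log2 ratio -0.95, -1.30 to -0.61) and Cyp8b1 at 15.5 against 60.1 (-1.96, on 12 UMIs in the 77). Slc27a5 was at 426 against 496 (-0.22, -0.39 to -0.052), and Cyp7b1 was higher, at 410 against 272 (0.59, 0.41 to 0.77). For the other 6 genes the intervals included 0. The median of all 7842 genes was 0.13 and that of the members -0.16, or -0.22 (Slc27a5) without Hsd3b7. Depth differed between the sets, and its part was not tested.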
